A study of Mus musculus with 2 samples.

Results

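The 10 genes studied here are carriers, receptors and regulators of the visceral endoderm and were chosen by name: Apoa1, Apob, Apoe, Ttr, Hnf4a, Cubn, Amn, Afp, Rbp4 and Dab2. A probe set, the group of short probes that reads 1 transcript on the array, was taken as theirs where the platform annotation gave it exactly 1 gene symbol equal to a member. That gave 28 probe sets for the 10 genes, out of 34945 probe sets naming 1 gene each and 18193 genes on the array. The samples were embryoid bodies, which are clumps of differentiating embryonic stem cells, made from the mouse line CGR8 (strain 129), which is a single line. Both groups came from cells kept without feeders in serum and LIF, then formed in hanging drops. The control group (1 array) had differentiation medium only, with no added agent, and the FGF10 group (1 array) had recombinant FGF10, a secreted fibroblast growth factor, at 100 ng/ml. The sample titles give day 2, while the series' design text gives RNA collection 24 h after treatment of bodies that were 2 days old, so the age at collection is uncertain. With 1 array per group there were no replicates, no test was possible and no p-value is given. The ratios describe these arrays alone.

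The visceral endoderm is the outer epithelium of the early embryo and of embryoid bodies. It takes up nutrients by endocytosis, packs lipid into lipoproteins and secretes carrier proteins before the liver and placenta take over these tasks, and it later lines the yolk sac. HNF4A is a nuclear receptor that the secretory programme of this epithelium requires, and many apolipoprotein and carrier genes are known to depend on it.

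Each value is a MAS5 signal, the intensity summary of a probe set on a linear scale, and each ratio is the log2 of FGF10 over control, centred on the median of kept probe sets. A probe set was kept when its mean signal reached 76.35, which is the median over the array without chip controls. Of the 28 member probe sets, 24 were kept and all 10 genes had at least 1. A gene's own value is that of its brightest kept probe set. Probe sets of 1 gene can overlap in sequence and share both RNA samples, so they are repeat readings and not replicates. Measures of spread of 2 kinds within the arrays were available, and neither gives the error between replicate samples. The first is the SD of 1 reading between probe sets of the same gene. It is the SD of the difference between the brightest and second brightest kept, divided by the square root of 2. It was 0.27 over the 5213 genes with at least 2 kept. The second is the range from the 5th to the 95th percentile of the log2 ratios of probe sets of similar signal. It was taken in 20 bins of 1126 or 1127 probe sets. That range includes any real differences between the samples, and by its definition 5.06% of kept probe sets lie below it.

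All 10 genes had a ratio below 0 on the brightest probe set, where 53.5% of all 11122 measured genes did. At least 1.5-fold lower with FGF10 were 5 of the 10 (Apoa1, Hnf4a, Cubn, Ttr and Dab2), beside 4.86% of all genes, and 0 were at least 1.5-fold higher, beside 5.41% of all genes. The median log2 ratio of the 10 was -0.57, and that of all genes was -0.03. Of the 24 kept probe sets, 22 were lower and 2 higher, where 50% of all kept probe sets were lower. At least 1.5-fold lower were 13 of the 24, beside 4.71% of all kept probe sets, and 0 were at least 1.5-fold higher, beside 7.03%. Past 2-fold lower were 1 of the 10 genes, Apoa1, beside 1.29% of all genes, and 5 of the 24 probe sets, beside 1.17%. Below the 5th percentile of their own signal bin lay 17 of the 24, beside 5.06% of all kept probe sets, and 0 lay above the 95th. In a bulk sample, fewer visceral endoderm cells and less of each RNA per cell cannot be told apart. The members were listed with earlier results of these arrays known, so the count describes the list and is not independent evidence of a direction.

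**Figure D1:**
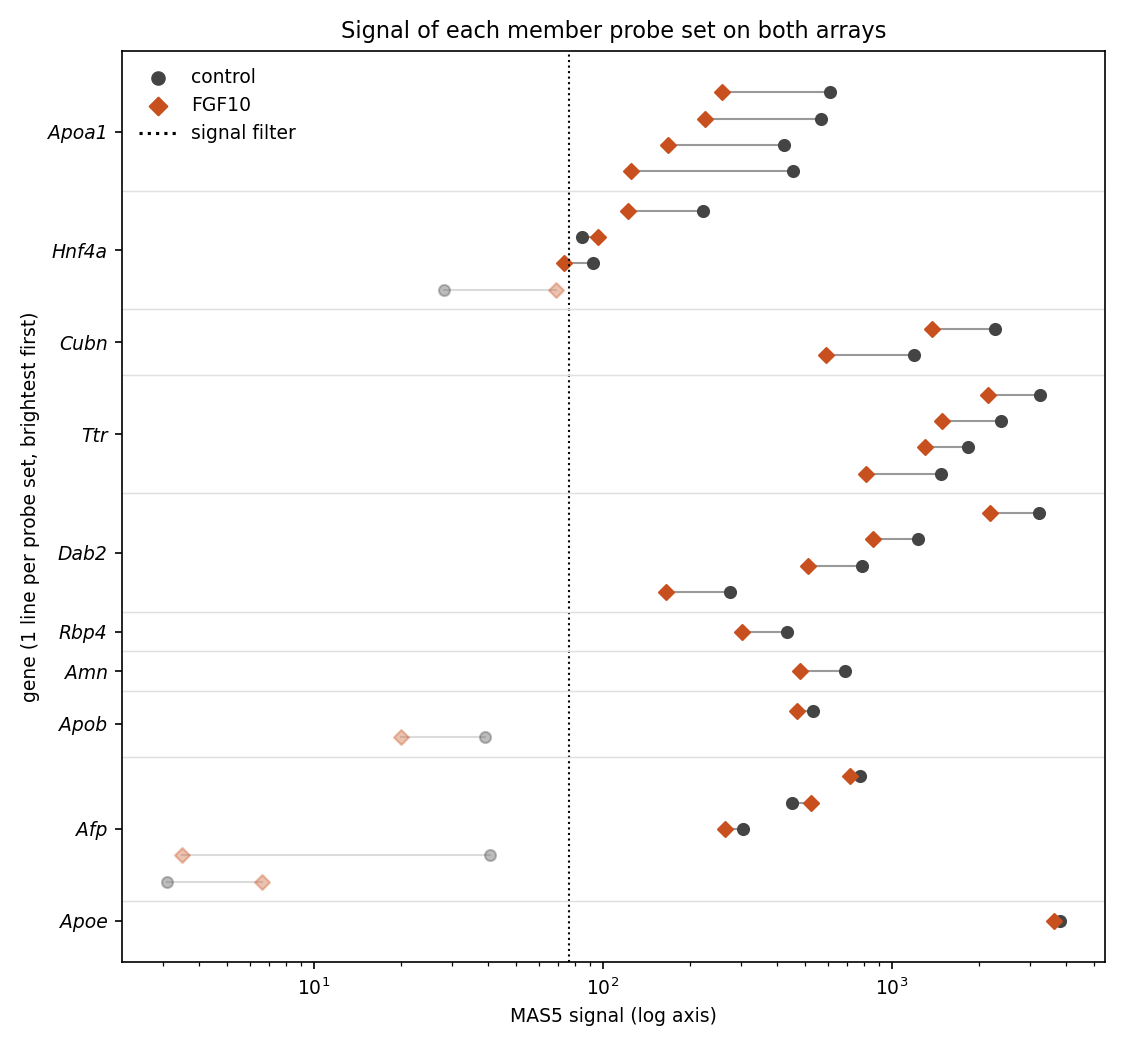
MAS5 signal of the 28 probe sets of the 10 genes on a log axis, with the control array as grey circles, the FGF10 array as orange diamonds and the signal filter of 76.35 as a dotted line; pale points are the 4 probe sets that were not kept. Every line of Apoa1, Cubn, Ttr and Dab2 runs the same way, with the FGF10 point to the left, and Hnf4a and Afp have lines running both ways.

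Order within the group, by the brightest probe set, was Apoa1 lowest, then Hnf4a, Cubn, Ttr, Dab2, Rbp4, Amn, Apob, Afp and Apoe. The 5 genes from Cubn to Amn lay between -0.76 and -0.55. From Hnf4a to Amn, and again from Apob to Apoe, each gene differed from the next by less than the SD between probe sets at its signal level. The order of adjacent genes within those runs is therefore not resolved. Apoa1 and Hnf4a differed by more than the SD at the level of Apoa1 (0.32) and by less than that at the level of Hnf4a (0.38). These SDs are for 1 reading, and a difference between 2 genes spreads more. The gaps from Apoa1 to Hnf4a and from Amn to Apob are therefore not resolved either. Around the 1.5-fold line, Ttr at 1.55-fold and Dab2 at 1.51-fold were just inside, and Rbp4 at 1.47-fold and Amn at 1.46-fold were just outside. A count of 5 therefore turns on small differences, and 7 of the 10 were lower by at least 0.32 on the log2 scale, beside 16.6% of all genes.

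Hnf4a, the regulator of the set, was read by 4 probe sets that did not share a sign. The brightest went from 221.6 in the control to 121.8 with FGF10, and its log2 ratio was -0.90. That lies below the range of its signal bin, which ran from -0.66 to 0.77. The next had signals of 84.4 and 95.9 (0.15) and the third 92.1 and 73.3 (-0.36), with its FGF10 signal under the filter, both inside ranges of about 1 log2 unit either way. The fourth, at 28.2 and 68.8, was under the filter on both arrays and gives no usable ratio. Over the 3 kept probe sets the mean was -0.37 with an SD of 0.52, so the lower level of Hnf4a rests on 1 reading of modest signal and did not hold on the next brightest.

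Promoters of 4 of the genes are shown as known or candidate places where HNF4A and its partner factors act. They come from genes that were lower and genes that were not. They include all 3 genes whose windows held the HNF4 letters, so they are not a random draw from the set. Each is the 250 bases before the transcription start given by RefSeq on GRCm38.p6, written 5′ to 3′ on the gene's strand, with motif matches in capitals. Apoa1 and Cubn were at least 1.5-fold lower, and Apob and Afp were within 1.5-fold.
Apoa1, chr9:46228380-46228629, plus strand: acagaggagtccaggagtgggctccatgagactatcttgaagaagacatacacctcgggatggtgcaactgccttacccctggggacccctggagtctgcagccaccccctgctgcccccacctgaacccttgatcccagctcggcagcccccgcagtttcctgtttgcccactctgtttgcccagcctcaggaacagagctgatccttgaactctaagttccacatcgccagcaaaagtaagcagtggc
Cubn, chr2:13491877-13492126, minus strand: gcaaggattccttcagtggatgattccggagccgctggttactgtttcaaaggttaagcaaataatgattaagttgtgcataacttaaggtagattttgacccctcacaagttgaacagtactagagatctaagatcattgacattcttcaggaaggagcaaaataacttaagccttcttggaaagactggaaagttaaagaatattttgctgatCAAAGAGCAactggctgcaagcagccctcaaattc
Apob, chr12:7977427-7977676, plus strand: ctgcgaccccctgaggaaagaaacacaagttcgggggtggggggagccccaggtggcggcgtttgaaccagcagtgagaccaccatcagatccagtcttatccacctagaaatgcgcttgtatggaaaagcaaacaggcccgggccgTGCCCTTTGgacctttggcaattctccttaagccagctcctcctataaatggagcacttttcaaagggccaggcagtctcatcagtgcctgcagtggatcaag
Afp, chr5:90490464-90490713, plus strand: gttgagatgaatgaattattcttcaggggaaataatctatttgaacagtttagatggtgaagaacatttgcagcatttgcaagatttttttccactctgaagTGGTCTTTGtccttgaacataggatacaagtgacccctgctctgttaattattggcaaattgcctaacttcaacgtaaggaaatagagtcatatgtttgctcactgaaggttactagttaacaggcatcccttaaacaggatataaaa

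The motifs searched on both strands, after the ratios had been seen, were CAAAGNNCA for HNF4, TNTTTAC for FOXA and AGATAA for GATA factors. Of the 10 genes, 9 had windows, 14 in all, and Ttr had none. The HNF4 letters were found in the windows of Cubn, Apob and Afp, so in 1 gene that was lower and 2 that were within 1.5-fold. They were in 3 of the 14 member windows, beside 5.49% of 32851 promoter windows of that length. In Cubn the match spans bases 35 to 27 before the start, in Apob bases 103 to 95, and in Afp bases 148 to 140. Apoa1 had no match to any of the 3 motifs in this window. Only these fixed letters were searched, so a site of looser form would be missed. A lack of match does not mean that no site is present. Outside the windows shown, Apoe and Rbp4 held the FOXA letters (10.9% of all windows) and Hnf4a the GATA letters (9.99%). The windows of Amn and Dab2 held no match. A match is a string of letters, and these data hold no measure of binding.

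Apoa1 encodes the main protein of high-density lipoprotein and was the lowest of the 10. Its 4 probe sets had control signals of 609.6, 566.2, 424.4 and 453.5, and FGF10 signals of 258.4, 225.2, 167.5 and 125.2 in the same order. Each probe set was lower on the FGF10 array, and the 4 log2 ratios were -1.27, -1.36, -1.38 and -1.89, a mean of -1.48 with an SD of 0.28 over probe sets. All 4 were at least 2-fold lower. On the brightest probe set the gene was 2.42-fold lower, and 71 of the 11122 measured genes (0.638%) had a lower ratio. All 4 are of the _x_at or _a_at types, whose probes can match more than 1 transcript.

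Apob and Apoe, the other apolipoproteins of the set, differed little between the arrays. Apob, the structural protein of the triglyceride-rich lipoproteins the yolk sac exports, had signals of 531.2 and 470.9 (-0.21). A second Apob probe set, at 39 and 20.1, was under the filter. Apoe, a ligand for lipoprotein receptors, was read by 1 probe set at 3814.1 and 3639.9 (-0.10). Probe sets as bright as that of Apoe had a median of -0.11, so its ratio sat at the middle of its signal bin, and after loess normalization on mean signal it was at -0.02. Both Apob and Apoe lay inside the range of their bins.

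The wider list of lipoprotein and lipid transfer genes, 34 in all without the members, gave 20 measured genes with a median of -0.20. Past 1.5-fold, 5 of the 20 were lower and 1 was higher, beside 4.86% and 5.41% of all genes. The same shares apply to the brightest probe set counts of the other lists below. With both signals required to pass the filter, 4 of 18 were lower and 1 higher, beside 3.62% and 4.58% of all genes. The lowest was Apom, a carrier of sphingosine phosphate on lipoproteins, at 280.7 and 112.9 (-1.35) and on another probe set at 229.2 and 144.6 (-0.70). Apoa4, an intestinal and yolk sac apolipoprotein, was at 182.9 and 78.7 (-1.25), and Apoc2, the activator of lipoprotein lipase, at 208.5 and 90.3 (-1.24). Abcg8, which pairs with Abcg5 as a sterol exporter, was at 119.4 and 54.1 (-1.18). Its FGF10 signal was under the filter, and raised to it the ratio was -0.68. The fifth, Apoc1 (559.6 and 365.4, -0.65), and the 1 higher gene, the sterol exporter Abcg1 (0.59), were named after their values were seen. Abcg1 was under the line after loess normalization (0.53). Mttp, which loads lipid onto Apob, gave -0.19 on its brightest probe set and -0.88 on the other. Apoa2 lay under the filter (61.5 and 50.1).

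Genes beside the members on the chromosome were looked up after the member values were seen. Those named here lie in or beside the apolipoprotein and albumin clusters. The values of Apoc1, Apoc2 and Apoa4 are those given above and not a further reading. Next to Apoe lie Apoc1 and Apoc2, both past 1.5-fold lower, beside 4.86% of all genes. Apoe itself was at -0.10 and Tomm40, on its other side, at -0.01. Farther along that side Bcam was at -0.78, so lower values were not limited to the Apoc genes. Apoc4, between Apoc1 and Apoc2, was under the filter. Next to Apoa1, Apoa4 was at -1.25, while Apoc3 and Apoa5 were under the filter, and Sik3, the neighbour on the other side, was at 0.43, with Tagln, 3 genes past it, at -0.87. In the albumin cluster, Alb and Afm on either side of Afp were both under the filter.

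Ttr and Rbp4 encode the partners that carry retinol in plasma, and Ttr also binds thyroid hormone. Ttr had control signals of 3244, 2381.8, 1836.6 and 1476.3 on its 4 probe sets, and FGF10 signals of 2143.2, 1488, 1298.3 and 815.9 in the same order. None of the 4 was higher with FGF10, with log2 ratios of -0.63, -0.71, -0.53 and -0.89, a mean of -0.69 with an SD of 0.15. All 4 lay below the range of their signal bins, whose lower ends ran from -0.44 to -0.41. These probe sets are all of the _x_at, _s_at or _a_at types, whose probes can match more than 1 transcript. Rbp4, read by 1 probe set, had signals of 434.6 and 302.7 (-0.56, 1.47-fold lower), just below its bin's lower end of -0.52.

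Among 15 other vitamin and metal carrier genes, 6 were measured, with a median of -0.23. On brightest probe sets 0 were at least 1.5-fold lower, and 1 was higher, the zinc and manganese importer Slc39a8 (0.63). Fth1, the ferritin heavy chain, was at -0.46, the transporter Slc39a14 at -0.33 (with -0.99 and -0.22 on its other kept probe sets) and the iron exporter Slc40a1 at -0.30. Stra6, the receptor for Rbp4, was under the filter, with signals of 92.6 and 53.4. Trf had no probe set with 1 gene symbol and was not analysed here.

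Afp encodes alpha-fetoprotein, the albumin-like carrier of fetal plasma, and was close to equal on both arrays. Its 3 kept probe sets had signals of 775.1 and 716.5 (-0.15), 452.5 and 526.2 (0.18), and 304.8 and 265 (-0.24). They disagreed in sign, with a mean of -0.07 and an SD of 0.22, and all 3 lay inside the range of their bins. A further 2 probe sets, at 40.6 and 3.5 and at 3.1 and 6.6, were far under the filter and gave ratios of -3.57 and 1.06 that carry no information on level. Of 17 other plasma proteins of yolk sac and fetal liver, 1 was measured, Spp2 at 105.9 and 84.2 (-0.37), and Alb was under the filter at 30.9 and 26.3.

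Cubn, Amn and Dab2 belong to the endocytic machinery by which this epithelium takes up proteins and lipoproteins. Cubilin, from Cubn, is a large receptor without a membrane span, amnionless, from Amn, anchors it in the membrane, and Dab2 is the adaptor that links such receptors to clathrin. The probe sets of Cubn had signals of 2274.1 and 1376.1 (-0.76) and of 1195.3 and 589.7 (-1.05), both below the range of their bins. Amn, on its 1 probe set, had signals of 686.4 and 480.6 (-0.55, 1.46-fold lower), below its bin's lower end of -0.45.

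Dab2 was lower on each of its 4 probe sets. Their control signals were 3214.9, 1229.9, 788.2 and 274.6, and their FGF10 signals 2182, 859.1, 510.4 and 165.4. The log2 ratios were -0.59, -0.55, -0.66 and -0.77, with a mean of -0.64 and an SD of 0.09, the smallest spread of the 6 members with at least 2 kept probe sets. On the brightest probe set Dab2 was 1.51-fold lower, and all 4 ratios lay below the range of their bins.

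The receptor that works with this complex, Lrp2 (megalin), is not one of the 10 and was lower too, at 1874.5 and 1104 (-0.80) and at 1351.1 and 865.8 (-0.68). In the list of 31 other endocytic receptors, adaptors and lysosomal genes, 28 were measured and the median was -0.08. Lrp2 was the 1 gene of them at least 1.5-fold lower, beside 4.86% of all genes. At least 1.5-fold higher were 2 of them, beside 5.41% of all genes. They were the lipoprotein receptor gene Vldlr, at 165.3 and 579.4 (1.78), and the clathrin adaptor subunit gene Ap2b1 (0.64, and 0.23 on another probe set). On its other kept probe set Vldlr was at 1.22 (1.10 with the control signal raised to the filter). Scarb1, a receptor for high-density lipoprotein, was at 0.49. Clathrin heavy chain (Cltc), named after its values were seen, gave -0.09 on the brighter and 0.64 on the dimmer of its probe sets.

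**Figure D2:**
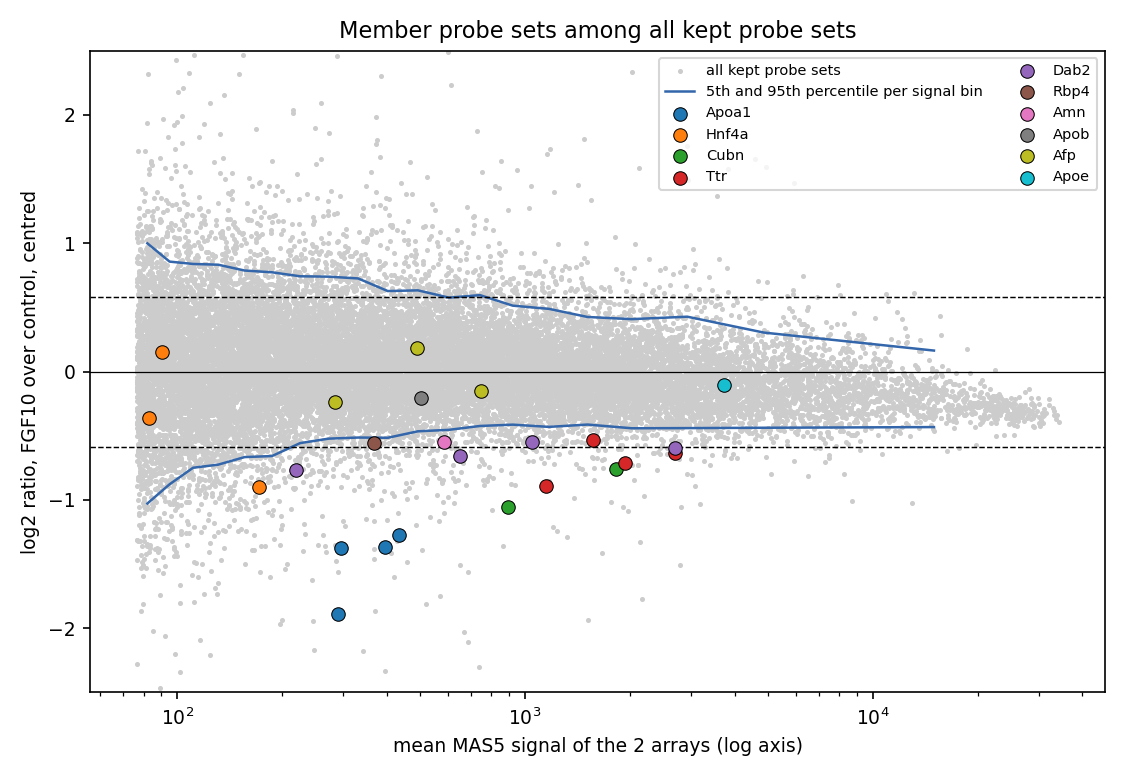
Log2 ratio of FGF10 over control, centred, against the mean MAS5 signal of both arrays (log axis), for all 22524 kept probe sets in grey and the 24 kept member probe sets in colour; blue lines are the 5th and 95th percentile in 20 signal bins, dashed lines mark 1.5-fold, and 32 probe sets past 2.5 either way are outside the axis. All points of Apoa1, Cubn, Ttr, Dab2, Rbp4 and Amn lie under the lower blue line, while those of Apob, Afp and Apoe lie between the lines.

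Sign agreement was as follows. Of the 6 members with at least 2 kept probe sets, 4 (Apoa1, Cubn, Ttr and Dab2) had 1 sign throughout, and Hnf4a and Afp did not. Among the 5213 genes on the array with that many kept probe sets, 54% did. Apoa1, Ttr and Dab2 each have 4 kept, and of the 880 genes with at least 4 kept, 33.3% had 1 sign throughout. Apoa1 and Cubn were at least 1.5-fold lower on every kept probe set, beside 0.691% of those genes. With the probe sets under the filter included, 7 members had at least 2, and 5 agreed, Apob joining the 4. Amn, Rbp4 and Apoe have 1 probe set each, so nothing can be said of agreement for them.

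**Figure D3:**
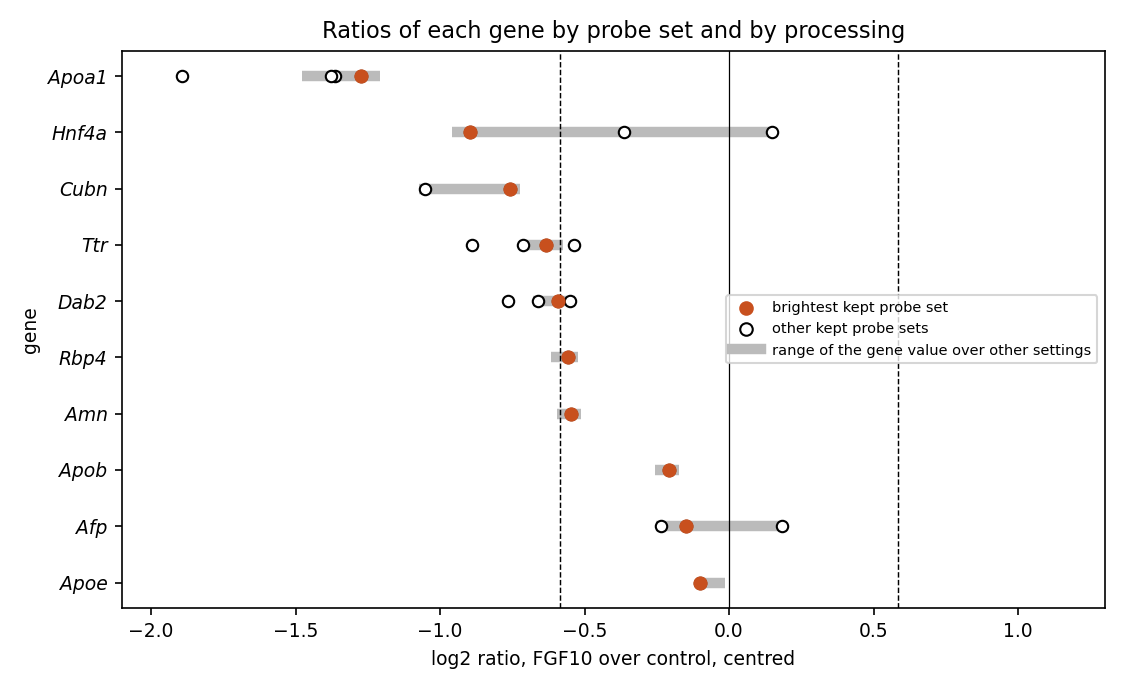
Log2 ratio of FGF10 over control for each gene, with the brightest kept probe set in orange, other kept probe sets as open circles, and a grey bar for the range of the gene's value over the other processing settings; dashed lines mark 1.5-fold. Apoa1 and Cubn stay left of the lower line throughout, Dab2, Rbp4, Amn and Ttr sit on or near it, and Hnf4a and Afp cross 0.

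Transcription factors of the endoderm were mixed. Of 21 such genes other than Hnf4a, 11 were measured, with 3 at least 1.5-fold lower, 3 higher and a median of 0.26. Of all genes, 4.86% were lower and 5.41% higher. With both signals required to pass the filter, 2 of 10 were lower and 3 higher, beside 3.62% and 4.58% of all genes. Of the 11, the higher ones were Foxa2 (3.10), Gata6 (0.96) and Sox17 (0.68). The lower ones were Nr5a2 (-1.01), the retinoid receptor gene Rxra (-0.65) and Sox7 (-0.61). The FGF10 signal of Nr5a2 was under the filter, and raised to it the ratio was -0.62. The probe sets of Gata4 gave -0.47 and 0.29. Foxa2 and Sox17 also mark definitive endoderm.

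Other markers of primitive and visceral endoderm were mixed, with a median of -0.07. Of 19 measured genes, 2 were lower and 4 higher, beside 4.86% and 5.41% of all genes. The lower ones were Rhox5 (-1.03) and Cited1 (-0.69), and the higher ones Bmp2 (1.18), Pdgfra (1.07), the keratin gene Krt19 (0.72) and the basement membrane gene Nid1 (0.64, and -0.16 on its other kept probe set). Of 10 parietal endoderm markers, 0 were lower and 2 higher, Snai1 (1.63) and Fst (1.59), with a median of -0.11. The control signal of Snai1 was 61, under the filter, and raised to it the ratio was 1.31. With both signals required to pass, 1 of 8 was higher, beside 4.58% of all genes. Thbd (-0.53, its FGF10 signal under the filter, and -0.30 with it raised to the filter) and Col4a2 (-0.41) were the next in size.

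Markers of definitive endoderm were mostly higher. Past 1.5-fold, 8 of 12 genes were higher and 0 lower, beside 5.41% and 4.86% of all genes, all 12 being measured. The median of the 12 was 1.61, and the 4 farthest from 0 were Mixl1 (3.87), Foxa2 (3.10), Cer1 (2.98) and Gsc (2.46). The 4 within 1.5-fold were Hhex (0.50), Kit (0.23, and 0.79 on its other kept probe set), Trh (0.07) and Pyy (-0.24). Foxa2, Sox17 and Hhex are also in the list of endoderm transcription factors, so this list does not mark that cell type alone. The higher values of its genes therefore cannot be assigned to definitive endoderm. Cer1 passed the filter through its FGF10 signal alone, and with its control signal of 60.6 raised to the filter it was at 2.65. With both signals required to pass, 7 of 11 were higher, beside 4.58% of all genes. The summed signal of the 12 over brightest probe sets went from 12174.3 in the control to 24751.4 with FGF10. Of this, Trh made up 7719.4 and 8322.9. No marker of either list was listed at 0 on an array. Of 9 trophoblast markers with a probe set, 2 were measured, Tfap2c (1.66) and Krt7 (-0.23). The part of these other cell types in the lower values of the visceral endoderm genes was not tested.

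**Figure D4:**
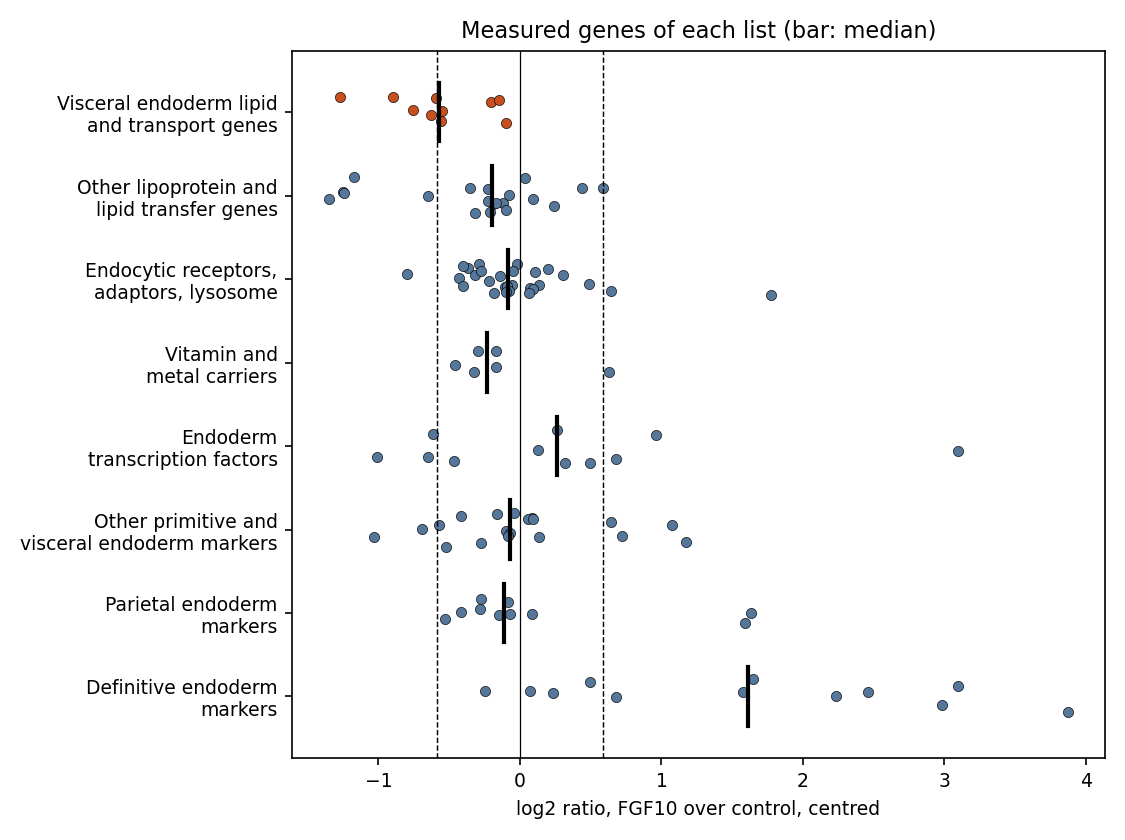
Log2 ratio of FGF10 over control for the measured genes of 8 lists, 1 point per gene (brightest kept probe set, spread vertically for legibility), with the list's median as a black bar and 1.5-fold as dashed lines; lists with 1 or 2 measured genes are not drawn. The 10 visceral endoderm genes, in orange, all lie left of 0 with a median of -0.57, and the definitive endoderm markers have a median of 1.61.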

How the data were processed

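Total RNA from 2 embryoid body samples was measured on Affymetrix expression arrays. The deposited values are linear MAS5 signal intensity per probe set, per the submitters' processing notes, with version and settings not given in the sources used here. The mean of each array without its lowest and highest 2% was 500.003, so ratios do not carry any difference in total RNA. No column was left unused.

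The arrays hold 45101 probe sets, 64 of them chip controls. Outside the controls, the platform annotation named 1 gene for 34945, several for 932 and none for 9160. All 10 member gene identifiers were found in the RefSeq gene table. Log2 ratios had no offset and were centred by 0.034, the median of 22524 kept probe sets. Counts use fixed sizes of 1.5-fold and 2-fold with no test. The number of arrays limits the precision.

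The members and gene lists were chosen with earlier results of these arrays known. Named genes are all members, the 4 or fewer genes of each list farthest from 0, and a fixed set, of which those reported are Lrp2, Mttp, Apom, Apoa2, Apoa4, Trf, Alb, Gata4, Gata6, Sox17, Foxa2, Stra6, the rest not being reported here; list members and chromosomal neighbours named beyond these were chosen after their values were seen. Alternatives covered centring, normalization, offset, filter, probe set rule and type, floor and threshold. Python 3.11.15, numpy 2.4.6, pandas 2.3.3 and statsmodels 0.14.6 were used, and the steps were tested on simulated arrays.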

Additional observations from a re-analysis of the deposited data

How the results depend on the processing

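All 10 visceral endoderm genes stayed below 0 wherever they were measured, except Hnf4a (0.15) and Afp (0.18) on second brightest probe sets, and the median of the set ran from -0.59 to -0.51 over 11 settings. The count of 5 genes at least 1.5-fold lower was 4 or 5 under centring, normalization, offset, floor, no filter, a filter on both arrays and the mean over probe sets. The genes behind that count were not always the same. Under quantile and loess normalization, Ttr (-0.575 and -0.573) and Dab2 (-0.533 and -0.534) fell short of the 1.5-fold line. Amn (-0.596 and -0.591) and Rbp4 (-0.610 and -0.615) passed it there. The share of all genes past the same line was 15.9% with no filter, where the member count was 4, and 3.62% to 5.51% in the others. The member count was 3 on second brightest probe sets (Dab2 at -0.55; 5.75% of all genes), and 1 at a threshold of 2-fold, where 1.29% of all genes were lower. It was 2 with the filter at the 75th percentile (Cubn and Ttr; Apoa1, Hnf4a and Rbp4 were not kept; 1.42% of all genes) and 2 without probe sets of the _x_at, _s_at and _a_at types (Cubn and Dab2; Apoa1, Ttr and Apoe were not kept; 5.05%), each over 7 genes. Over the other lists together, 11 of 102 genes were lower and 20 higher, beside 4.86% and 5.41% of all genes. Without a signal filter 32 of 149 were lower and 30 higher, beside 15.9% and 13.8% of all genes. At the stricter filter 4 of 66 were lower and 9 higher, beside 1.42% and 3.56%. The trophoblast median turned from 0.72 over 2 genes to -0.21 over 9 without a filter. Other causes of these shifts were not tested. Signals near the filter are the least certain, which touches Hnf4a most. No paired analysis was possible because each group has 1 array.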

Other observations

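Dgat2, which makes triglyceride, gave a log2 ratio of -0.08 on the brighter of its kept probe sets (304.8 and 295.5) and -1.39 on the dimmer (330.5 and 128.7), a disagreement larger than any among the kept probe sets of the 10 visceral endoderm genes. It was picked out after its values were seen.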
